A study of Mus musculus with 9 samples.

Results

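The developmental pluripotency associated (Dppa) genes examined here are Dppa2, Dppa4, Dppa3, and Dppa5a. They were chosen by name from the deposited expression table, where they make up 4 of 25965 genes, and all 4 were among the 14601 genes expressed highly enough to be tested (log2 expression above -2 in at least 3 libraries). RNA-seq was performed on E14 mouse embryonic stem cells (ESCs) grown in serum and LIF, a cytokine that sustains self-renewal. E14 is an established line of 129/Ola background. Cells of all groups were transfected with siRNA at 0 h and again at 48 h, and were collected at 96 h, after 4 d. The groups differed in the siRNA alone, which was a control siRNA, a pool against Dppa2, or a pool against Dppa4. Each group had 3 polyadenylated RNA libraries, titled rep3A, rep3B, and rep3C and called A, B, and C here. What the shared number in these titles stands for is not stated. The knockdowns are transient and act on the mRNA, so no gene was deleted. The study describes its siRNA knockdowns in ESCs that carry the fluorescent reporters MERVL::tdTomato and Zscan4c::eGFP, which the labels of these libraries do not name. It calls its siRNA replicates biological, but no source used here says that they were separate cultures, so p-values measure the spread between these libraries. The comparison asks whether the other Dppa genes follow when Dppa2 or Dppa4 is lost.

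The name Dppa was given to genes found through their expression in pluripotent cells and early embryos, and the proteins are not one family. Dppa2 and Dppa4 are close relatives that each carry a DNA-binding SAP domain, bind one another, and sit on chromatin in ESCs, and their genes lie side by side. Dppa3 (also called Stella or PGC7) is a maternal factor that shields the egg's genome from demethylation after fertilization, hinders maintenance methylation by binding Uhrf1, marks primordial germ cells, and is expressed unevenly from cell to cell in serum-grown ESCs. Dppa5a (also called Esg1) is a small RNA-binding protein with a KH domain that is abundant in ESCs.

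In the GRCm38 assembly Dppa4 (ENSMUST00000096045, chr16:48283735-48294292, plus strand) and Dppa2 (ENSMUST00000097175, chr16:48310477-48319723, plus strand) are separated by 16.2 kb. Dppa3 (ENSMUST00000049644, chr6:122626410-122630272, plus strand) lies between Gdf3 and Nanog, and Dppa5a (ENSMUST00000071991, chr9:78367052-78368177, minus strand) lies beside Ooep. The transcripts are short, with 1948 bases for Dppa2, 1479 for Dppa4, 833 for Dppa3, and 619 for Dppa5a. Each has processed copies elsewhere in the genome. Of all stretches of 50 bases in the transcript, the length of one read, 36.7% for Dppa2, 35.9% for Dppa4, 17.7% for Dppa3, and 38.6% for Dppa5a also occur in another annotated gene. The pairs below show how close a copy can be. Each pairs a stretch of coding sequence with the matching stretch of a processed pseudogene, both 5′ to 3′, and the capital is the 1 base of 50 at which the pair differs. Sequences are from the GENCODE annotation of GRCm38. Dppa2 is at chr16:48311575-48311624 on the plus strand, Gm9788 at chr19:41459846-41459895 on the plus strand, Dppa5a at chr9:78367816-78367865 on the minus strand, and Gm5250 at chr1:13062145-13062194 on the plus strand.
Dppa2: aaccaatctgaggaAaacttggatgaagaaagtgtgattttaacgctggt
Gm9788: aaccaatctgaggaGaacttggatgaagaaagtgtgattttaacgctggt
Dppa5a: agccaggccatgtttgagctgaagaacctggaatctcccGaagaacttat
Gm5250: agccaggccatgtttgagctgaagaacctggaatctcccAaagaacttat
The table lists the place of Gm5250 under the name Dppa5b, and how reads that match several places were counted is not given in the sources used here.

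The estimated depth was 16.8 to 39.6 Mreads on genes per library, and each value below is the deposited log2 expression, which was matched between libraries and is not divided by gene length. ESC markers were high in every library (8 of 8 tested, none called in either knockdown), whereas of 6 fibroblast markers only Thy1 (2.02 to 2.72 over all libraries) and Col1a1 (0.25 to 0.99) were high enough to be tested, and Postn was at the lowest value throughout. All 7 markers of 2C-like cells, the rare ESC subpopulation that expresses genes of the 2-cell embryo, fell with both siRNAs. Their summed log2 level was 6.04 to 6.11 in control libraries, -0.95 to 0.25 under Dppa2 siRNA, and -0.95 to -0.18 under Dppa4 siRNA. All 7 were above -2 in every control library, whereas Zscan4f, Tcstv1, Tcstv3, and Zfp352 were below -2 in every knockdown library. Those genes were tested only through the controls, so a call could only be lower. Over all tested genes 2.27% and 2.34% were called lower with Dppa2 and Dppa4 siRNA. The study had reported this fall from its siRNA libraries, so it is not independent evidence. Fewer 2C-like cells and less RNA per cell cannot be told apart in bulk RNA alone. The study separately reported by flow cytometry that both siRNAs depleted 2C-like cells. It also describes Dppa2 and Dppa4 as expressed evenly across ESCs. For the genes below, a change in the share of expressing cells was not told apart from one in RNA per cell.

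Dppa2 was examined first, since it checks the labels. Its log2 expression was 7.26, 7.16, and 6.94 in control libraries A, B, and C, 3.36, 3.86, and 3.68 with Dppa2 siRNA, and 7.01, 7.17, and 7.03 with Dppa4 siRNA. The 3 libraries labelled Dppa2 siRNA were far below all others (8.2% of all tested genes were lower in every Dppa2 siRNA library than in every control library), and the Dppa4 siRNA libraries lay within the control range. On the linear scale 8.98% ± 1.54 (SD, n = 3) of the control level remained in Dppa2 siRNA libraries, beside 96.2% ± 5.87 (SD, n = 3) in those of Dppa4 siRNA. The log2 change with Dppa2 siRNA was -3.49 (SE 0.14, 95% interval -3.81 to -3.16, limma adjusted p = 2.13e-05). With Dppa4 siRNA it was -0.05 (SE 0.14, limma adjusted p = 0.921), and the interval of -0.37 to 0.27 leaves room for a modest change of the Dppa2 transcript in either direction. These values are of RNA alone. The study reported that Dppa4 siRNA strongly reduced the Dppa2 protein although its mRNA did not change. It also reported a smaller reduction of the Dppa4 protein with Dppa2 siRNA. The Dppa2 signal that remained with Dppa2 siRNA rested on at least 299 to 400 reads per library. This is a lower bound taken from the order of the distinct values in a library.

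In these values Dppa4 was lowered by its own siRNA to a much smaller degree than Dppa2 by its own. The study reported a larger loss of Dppa4 mRNA by qRT-PCR, and a still larger loss of Dppa4 protein by Western blotting. Its log2 expression was 7.02, 7.11, and 7.06 in the control libraries, 7.11, 7.07, and 7.17 with Dppa2 siRNA, and 6.16, 6.14, and 6.09 with Dppa4 siRNA. The Dppa4 siRNA libraries stood below the other 6, as they did for 2.49% of all tested genes, and the control and Dppa2 siRNA libraries overlapped. With Dppa4 siRNA 52.4% ± 1.21 (SD, n = 3) of the control level remained, a log2 change of -0.93 (SE 0.08, 95% interval -1.11 to -0.76, limma adjusted p = 2.81e-04). With Dppa2 siRNA the level was 104% ± 3.46 (SD, n = 3), a log2 change of 0.05 (SE 0.08, 95% interval -0.12 to 0.23, limma adjusted p = 0.888). Dppa4 was also the steadiest of the 4 transcripts, with an SD within groups of 0.043 on the log2 scale, at percentile 1.37 among the 146 genes nearest in level (median 0.183).

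**Figure D1:**
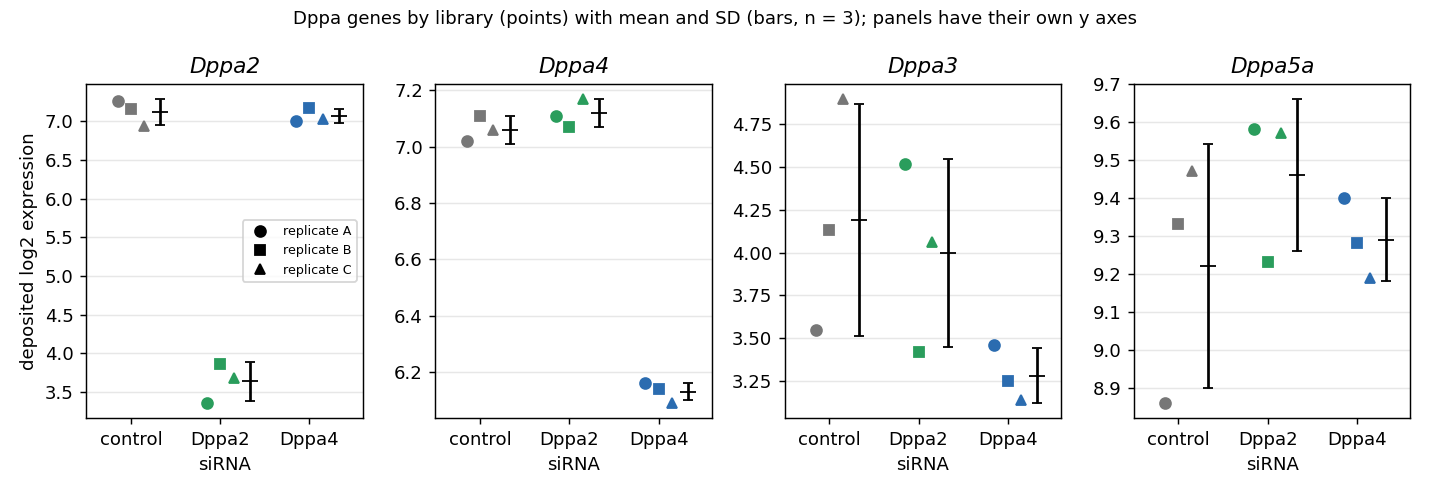
Deposited log2 expression of Dppa2, Dppa4, Dppa3, and Dppa5a (panels, each with its own y axis) in the 9 libraries, by siRNA (x axis, color) and replicate letter (symbol), with mean ± SD (n = 3). Dppa2 and Dppa4 are low only in the libraries of their own siRNA, whereas the control libraries of Dppa3 spread from 3.55 to 4.90.

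Dppa3 varied the most of the 4 genes between libraries of a group. Its log2 expression was 3.55, 4.13, and 4.90 in the control libraries, 4.52, 3.42, and 4.06 with Dppa2 siRNA, and 3.46, 3.25, and 3.14 with Dppa4 siRNA. All 3 Dppa4 siRNA libraries were below all 3 control libraries, but the highest of them was close to control library A, and the Dppa2 siRNA libraries covered much of the control range. On the linear scale 85.1% ± 31.0 (SD, n = 3) of the control level was found in Dppa2 siRNA libraries and 49.7% ± 5.67 (SD, n = 3) in Dppa4 siRNA libraries, beside 100% ± 47.1 (SD, n = 3) in the controls themselves. The log2 difference from control was -0.91 with Dppa4 siRNA (SE 0.35, 95% interval -1.71 to -0.11) and did not pass (limma adjusted p = 0.214, unadjusted 0.0296). Of all tested genes, 10.2% were lower in every Dppa4 siRNA library than in every control library, so the lack of overlap is common in this comparison. With Dppa2 siRNA the difference was -0.19 (SE 0.35, 95% interval -0.99 to 0.60, limma adjusted p = 0.921). The values rested on at least 246 to 976 reads per library. Without control library C the difference with Dppa4 siRNA was -0.56 (limma adjusted p = 0.323), and without control library A it was -1.23 (limma adjusted p = 0.108). Its SD within groups was 0.514 on the log2 scale, above that of 92.5% of the 146 genes nearest in level (median 0.223).

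Dppa5a was the most abundant member. Its log2 expression was 8.86, 9.33, and 9.47 in the control libraries, 9.58, 9.23, and 9.57 with Dppa2 siRNA, and 9.40, 9.28, and 9.19 with Dppa4 siRNA. Both knockdown groups overlapped with the controls, of which library A was the lowest of all 9. The log2 difference from control was 0.24 with Dppa2 siRNA (SE 0.17, 95% interval -0.14 to 0.61, limma adjusted p = 0.606) and 0.07 with Dppa4 siRNA (SE 0.17, 95% interval -0.30 to 0.45, limma adjusted p = 0.895). Relative to control these intervals hold levels of 91.0% to 153% for Dppa2 siRNA and 81.1% to 137% for Dppa4 siRNA, so a loss of Dppa5a as large as that of either targeted transcript lies outside them.

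Of the 4 genes, 1 was called lower with each siRNA, and in both cases it was the targeted gene. Over all tested genes the share called in either direction was 3.44% for Dppa2 siRNA and also 3.44% for Dppa4 siRNA, of which 2.27% and 2.34% were lower. Both targeted genes also passed an intensity difference filter, which compares a gene with those nearest to it in level, and so were among the 1.91% and 1.95% of genes called high-confidence. The unadjusted filter p was also below 0.05 for Dppa3 with Dppa4 siRNA, against control (0.00158, adjusted 0.166) and against Dppa2 siRNA (1.65e-04, adjusted 0.0524). Dppa3 was not called by limma in either comparison, so it was not high-confidence there. The knockdowns share their control libraries, so their differences from control are not independent of each other. Set against each other directly, Dppa2 was higher by 3.43 with Dppa4 siRNA than with Dppa2 siRNA (SE 0.14, limma adjusted p = 2.43e-05) and Dppa4 was lower by 0.99 on the log2 scale (SE 0.08, limma adjusted p = 0.00351, or 0.0688 and 0.0525 without Dppa4 siRNA library B or C). Only 3 genes of 14601 (0.0205%) differed between the knockdowns at this threshold, 987 at an unadjusted p below 0.05. The third, noted after its values were seen, was the gene 4930486L24Rik, with a log2 expression of -0.94 to -0.83 with Dppa4 siRNA and -4.47 to -3.84, near the floor, with Dppa2 siRNA (limma adjusted p = 0.0106). Its call was lost without Dppa2 siRNA library A, control library B, or any 1 of the Dppa4 siRNA libraries (up to 0.129), and with log2 of the linear value plus 1 its difference was 0.55 in place of 3.26 (limma adjusted p = 0.581). Dppa3 differed by -0.72 between the knockdowns (95% interval -1.51 to 0.08, limma adjusted p = 0.788), and Dppa5a by -0.17 (SE 0.17, limma adjusted p = 0.937).

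**Figure D2:**
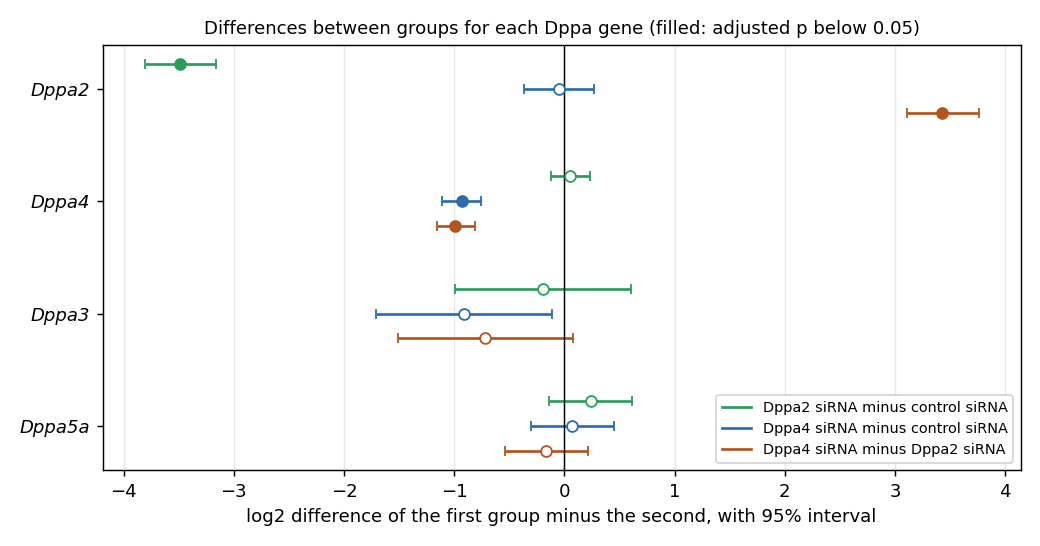
Log2 difference (x axis) of each Dppa gene (y axis) in the 3 comparisons between groups (color), with the 95% interval from limma; filled points have an adjusted p below 0.05. The filled points belong to Dppa2 and Dppa4 alone, and the widest intervals are those of Dppa3.

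Levels of different genes were compared per length, as log2 expression per kilobase of the listed transcript, as a description without a test. In control cells Dppa5a stood first at 9.91 (9.55 to 10.16 over 3 libraries), followed by Dppa4 at 6.50 (6.45 to 6.54), Dppa2 at 6.16 (5.97 to 6.30), and Dppa3 at 4.46 (3.81 to 5.16). The ranges of neighbors in this order did not overlap. With Dppa4 siRNA Dppa2 (6.11) stood above Dppa4 (5.57), and with Dppa2 siRNA Dppa3 (4.26) stood above Dppa2 (2.67). Knockdown thus left more Dppa4 transcript per length in Dppa4 siRNA cells than Dppa2 transcript in Dppa2 siRNA cells. The table holds 2 further names beginning with Dppa. Dppa1 was at the lowest value of the table in all 9 libraries, and Dppa5b ranged from -4.13 to -1.62 and was above -2 in 1 library, so neither was tested.

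The spread of Dppa3 and Dppa5a followed a pattern shared by many genes. One axis took 58.3% of the variance of the libraries around their group means (the next took 11.3%), and placed control library C (1.77) and control library A (-1.56) at its ends, with Dppa2 siRNA library B (-1.35) beside the latter. The replicates of Dppa4 siRNA covered the narrowest range of the 3 groups, from -0.55 to 0.51. Per unit of this score, log2 expression changed by 0.41 for Dppa3, more than for 97.2% of tested genes, by 0.17 for Dppa5a, by 0.02 for Dppa4, and by -0.12 for Dppa2. Across 13103 tested genes with a known length, the change per unit had a Spearman correlation of -0.50 with transcript length and 0.38 with GC content. Its median was 0.18 for transcripts of up to 1000 bases, where Dppa3 and Dppa5a belong, and -0.12 for those over 4000 bases. Genes are not independent replicates, and all points come from the same 9 libraries.

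**Figure D3:**
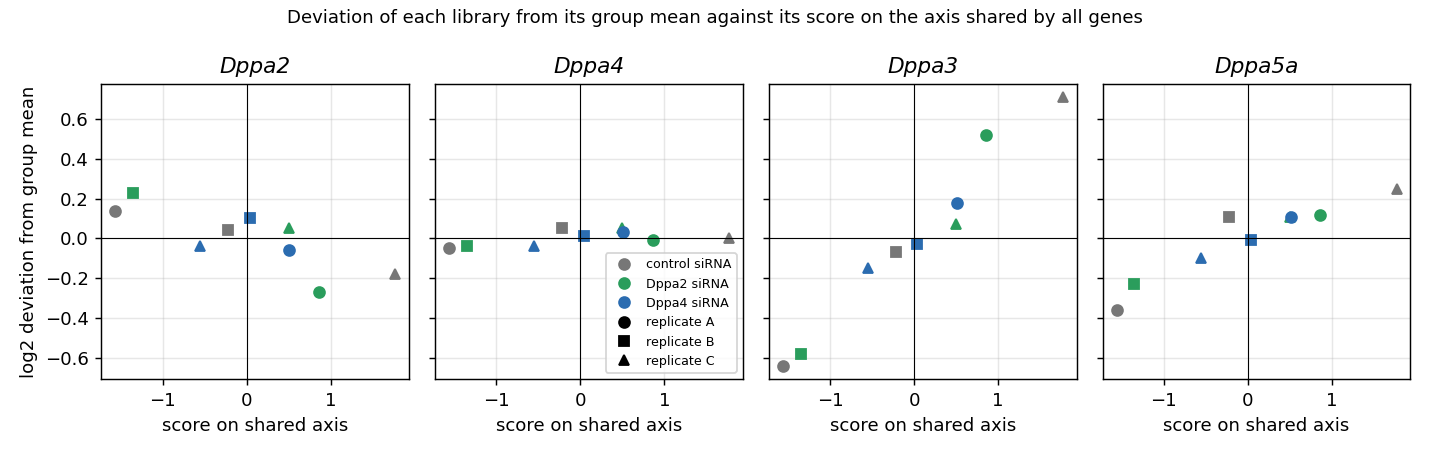
Deviation of each library from the mean of its group in log2 expression (y axis), against the score of that library on the axis of shared deviation over all tested genes (x axis, no unit), for each Dppa gene (panels), with siRNA as color and replicate letter as symbol. Dppa3 rises with the score from -0.64 to 0.71 and Dppa5a from -0.36 to 0.25, whereas Dppa4 is flat.

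The members were therefore examined again after a trend on transcript length had been removed from each library, an adjustment chosen after the data had been seen. Log2 expression of Dppa3 then was 3.89, 4.17, and 4.68 in the control libraries, 4.33, 3.60, and 3.95 with Dppa2 siRNA, and 3.33, 3.22, and 3.21 with Dppa4 siRNA. The Dppa4 siRNA libraries now lay below all 6 others, as they did for 3.45% of tested genes after this adjustment. The log2 difference with Dppa4 siRNA was -0.99 (SE 0.22, 95% interval -1.49 to -0.49) and passed the threshold (limma adjusted p = 0.0381), as 3.28% of tested genes did in this direction. With Dppa2 siRNA it was -0.29 (SE 0.22, limma adjusted p = 0.600), and between the knockdowns it was -0.71 (SE 0.22, limma adjusted p = 0.448), so a difference in the response of Dppa3 to the siRNAs was not shown. The call for Dppa3 with Dppa4 siRNA therefore depends on the adjustment, and its adjusted p ranged from 1.02e-04 to 0.468 over all alternatives run.

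The adjustment acted on the 4 genes unequally. The SD within groups on the log2 scale went from 0.514 to 0.315 for Dppa3 and from 0.226 to 0.062 for Dppa5a, but from 0.183 to 0.268 for Dppa2 and from 0.043 to 0.141 for Dppa4. Dppa5a was then 9.18, 9.38, and 9.26 in the control libraries, 9.40, 9.39, and 9.46 with Dppa2 siRNA, and 9.27, 9.25, and 9.25 with Dppa4 siRNA. The Dppa2 siRNA libraries were all above the controls, by a narrow margin and as for 9.67% of tested genes, and the log2 difference was 0.14 (SE 0.08, 95% interval -0.03 to 0.31, limma adjusted p = 0.40). Changes of the targeted genes were -3.56 for Dppa2 and -1.02 for Dppa4, close to those without it.

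With the axis score as a covariate, also added after the data had been seen, Dppa3 was lower with Dppa4 siRNA than in control cells (limma adjusted p = 1.02e-04) and lower than with Dppa2 siRNA (limma adjusted p = 0.00562). Dppa5a was higher with Dppa2 siRNA (log2 change 0.24, limma adjusted p = 0.0298), and the change of Dppa3 with Dppa2 siRNA did not pass (-0.19, limma adjusted p = 0.133). These values are optimistic, because the axis is taken from the same residuals that the test uses. In this fit 11.3% of all tested genes were called lower with Dppa4 siRNA than in control cells, 2.71% lower than with Dppa2 siRNA, and 10.9% higher with Dppa2 siRNA than in control cells, so calls for Dppa3 and Dppa5a have a high background.

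Copies with a row of their own were followed beside their parents. Gm9788, a processed pseudogene on chromosome 19 that holds 34.2% of the 50-base stretches of Dppa2, had log2 expression of 1.07, 0.62, and -0.65 in control libraries, -2.13, -0.32, and -1.13 with Dppa2 siRNA, and 0.40, 1.36, and 1.95 with Dppa4 siRNA. Its lowest library was a Dppa2 siRNA library, but the Dppa2 siRNA and control libraries overlapped. The log2 difference of -1.54 from control did not pass (SE 0.60, limma adjusted p = 0.241). All Dppa4 siRNA libraries were above all Dppa2 siRNA libraries. The log2 difference of 2.43 between these knockdowns did not pass either (SE 0.60, limma adjusted p = 0.586). Gm5501, a copy with 12.3% of the stretches of Dppa4, was at 0.56, 1.16, and 0.39 in control libraries, 0.50, 1.01, and 1.23 with Dppa2 siRNA, and -0.85, -0.05, and -0.13 with Dppa4 siRNA. All Dppa4 siRNA libraries were below the other 6, as for 2.49% of all tested genes, and held at least 17 to 30 reads on Gm5501. Its log2 difference from control was -1.05 (SE 0.31, limma adjusted p = 0.110). In control cells the copies, with means of 0.34 and 0.70, were far below their parents at 7.12 and 7.06. Pigp, a protein-coding gene with 12.3% of the stretches of Dppa5a, stayed between 2.58 and 2.90 in all 9 libraries. Whether reads on these rows came from the copy or the parent was not tested.

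**Figure D4:**
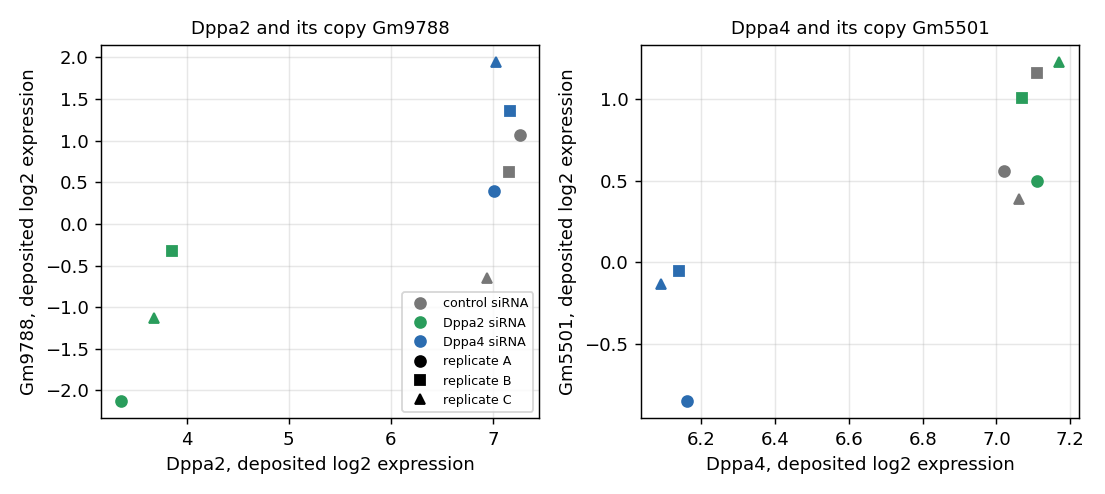
Deposited log2 expression of the copies Gm9788 and Gm5501 (y axes) against that of their parents Dppa2 and Dppa4 (x axes) in the 9 libraries, with siRNA as color and replicate letter as symbol. Gm5501 is lowest in the 3 libraries with the least Dppa4, whereas Gm9788 in control library C (-0.65) lies among the Dppa2 siRNA libraries.

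The surroundings of the Dppa genes were examined next. Within 250 kb of the 3 loci the table holds 33 other genes, of which 22 were tested. Of all tested genes 3.44% were called with each siRNA. None of the 22 was called with Dppa2 siRNA and 2 were called with Dppa4 siRNA, both near Dppa3. These were Rimklb, which encodes a glutamate ligase (log2 change -0.54, SE 0.09, limma adjusted p = 0.0145), and Mfap5, which encodes a microfibril protein of the extracellular matrix (0.74, SE 0.16, limma adjusted p = 0.0448). The call for Rimklb was lost without Dppa4 siRNA library A, B, or C (limma adjusted p up to 0.0922), and that for Mfap5 without any 1 library other than control C (up to 0.203). Gdf3, a TGF-β family ligand beside Dppa3, was at 6.18 in control cells and differed by -0.30 with Dppa2 siRNA (limma adjusted p = 0.156) and 0.01 with Dppa4 siRNA (limma adjusted p = 0.974). Nanog, the pluripotency factor on its other side, was at 8.26 and differed by -0.22 (95% interval -0.66 to 0.21) and -0.28 (95% interval -0.71 to 0.15). At the Dppa4 and Dppa2 locus, Morc1, a germ line repressor of transposons, differed by -0.08 and -0.12, and Gm7204 by 0.06 and 0.49, none of them called. Ooep, the maternal-effect neighbor and KH-domain relative of Dppa5a, was at 6.23 and differed by 0.50 with Dppa2 siRNA (95% interval 0.10 to 0.91, limma adjusted p = 0.206) and 0.20 with Dppa4 siRNA (limma adjusted p = 0.657). Gsta2, its neighbor on the other side, was near the floor and was not tested.

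**Figure D5:**
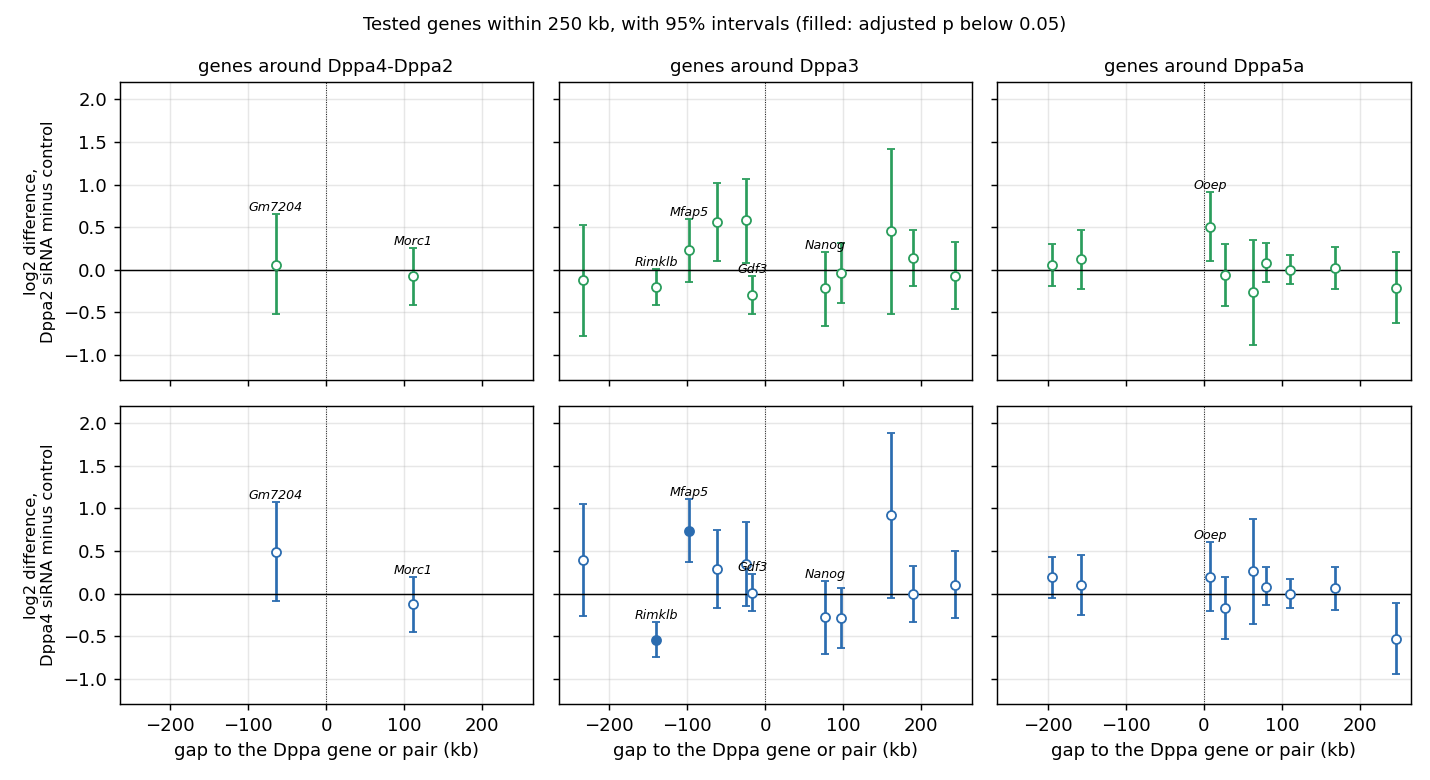
Log2 difference from control with 95% interval (y axis) of the 22 tested genes within 250 kb of the Dppa4 and Dppa2 pair, Dppa3, or Dppa5a (columns) with Dppa2 siRNA (upper row) or Dppa4 siRNA (lower row), against the gap to that gene or pair in kb (x axis). Filled points have an adjusted p below 0.05, and these are Rimklb (-0.54) and Mfap5 (0.74) with Dppa4 siRNA.

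Profiles were compared as log2 expression minus the control mean over the 9 libraries, with the root mean square (RMS) difference as the measure of likeness. The closest genes to Dppa4 were Gpc3 (RMS difference 0.18), Tspan7 (0.22), and Pros1 (0.24), with log2 differences from control of -0.70, -0.81, and -0.55 with Dppa4 siRNA. These genes were picked for their likeness to Dppa4 over the same libraries, which fixes the direction of these differences, so they are given without a test. The closest to Dppa3 were S100a13 (0.19), Cd63 (0.20), and Olfm1 (0.20). The closest to Dppa5a were Atp5j, Gng3, and Lace1, all at 0.05, but 2520 genes lay within 0.2 of it, and a flat profile differed from it by only 0.23. No gene was close to Dppa2, for which the nearest were Kcnn4 (0.81), Vdr (0.91), and Atp13a4 (0.94), all with a control mean below 0. Among the members the closest pair was Dppa4 and Dppa3, with an RMS difference of 0.43. At this value Dppa4 was number 295 of 14600 in likeness to Dppa3, and Dppa3 number 725 in likeness to Dppa4. A flat profile differed from Dppa4 by 0.54 and from Dppa3 by 0.68. Dppa4 was lowered by its own siRNA in the same libraries, so this likeness is not separate evidence on Dppa3. Dppa2 differed from the other members by 2.04 to 2.17. Likeness is a description over libraries that share controls.

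Genes tied to the members by function were taken from written lists, and for each the median log2 difference can be set against that of all tested genes, 0.02 with Dppa2 siRNA and 0.03 with Dppa4 siRNA. Of 8 partners and opponents of Dppa3 in DNA methylation none was called in either knockdown, with medians of -0.04 and 0.06. Uhrf1, the target of Dppa3, was at 8.06 in control cells and differed by -0.02 and 0.09, and the maintenance methyltransferase Dnmt1 by -0.05 and 0.03. The de novo methyltransferases Dnmt3a (0.01 and 0.40) and Dnmt3b (0.09 and 0.10) did not pass either. Of 14 naive pluripotency regulators that act on Dppa genes none was called, with medians of 0.05 and 0.02. Oct4 (Pou5f1) differed by 0.09 and 0.14, Sox2 by 0.19 and -0.09, and Esrrb by 0.11 and 0.10. Of the KH-domain relatives of Dppa5a only Ooep was tested, and Khdc1a, Khdc1b, and Khdc1c were at or near the lowest value of the table.

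Some germ cell and Oct4-related genes fell in both knockdowns, where 2.27% (Dppa2 siRNA) and 2.34% (Dppa4 siRNA) of all tested genes were called lower. Of 14 primordial germ cell genes 5 fell with Dppa2 siRNA and 5 with Dppa4 siRNA, and none rose, with medians of -0.51 and -0.58. These were the meiotic and germ line genes Dazl (-2.36 and -2.19), Sohlh2 (-2.39 and -2.23), Syce1 (-2.06 and -1.47), Mael (-1.91 and -1.46), and Ddx4 (-1.91 and -1.19). The study named Mael, Syce1, and Sohlh2 from these samples, so the list is not independent evidence of a direction. The specification factors that act earlier in germ cells, where Dppa3 itself is a marker, did not pass, with Prdm1 at -0.26 and -0.46, Prdm14 at -0.40 and -0.33, and Tfap2c at 0.06 and -0.36. Of 13 tested genes on the written list of Oct4-related embryonic genes, 3 fell in each knockdown and none rose, with medians of -0.05 and 0.01. These were Fbxo15, an F-box gene and Oct4 target (-0.91 and -1.12), and the Pramel genes Pramel6 (-2.26 and -1.43) and Pramel7 (-2.10 and -1.93). With Dppa4 siRNA, Ddx4 and Pramel6 lost their calls without Dppa4 siRNA library A (limma adjusted p = 0.0910 and 0.0714) or C (0.0513 and 0.0589), and Ddx4 also without its library B or control library B (0.0885 and 0.0552). No list had a gene called between the knockdowns.

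Markers of other cell types were read beside Dppa3. Its mean was lowest with Dppa4 siRNA, but the difference from control did not pass in the fit without added adjustments (limma adjusted p = 0.214). The 8 primitive endoderm markers had a summed log2 level of 3.73 to 4.28 in control libraries, 4.13 to 4.47 in those of Dppa2 siRNA, and 4.59 to 4.81 in those of Dppa4 siRNA. Of all tested genes 3.44% were called in either direction with Dppa4 siRNA. Of the 8 markers 0 passed with Dppa2 siRNA and 2 rose with Dppa4 siRNA, while the list median was 0.49 and 1.14. These 2 were the endoderm transcription factors Gata6 (1.44, limma adjusted p = 0.0132) and Sox17 (1.20, limma adjusted p = 0.0348). Leaving out Dppa4 siRNA library A or B ended both calls, at limma adjusted p of 0.0666 and 0.0762 for Gata6 and 0.143 and 0.136 for Sox17. The call for Sox17 was also lost without, for example, Dppa4 siRNA library C, control library A, or control library C (0.106, 0.0967, and 0.0703). Of the 9 fits with 1 library left out, 3 had a limma adjusted p below 0.05 for Sox17. None of the 8 markers was at the lowest value in all libraries. Their part in the level of Dppa3 was not tested. Primed epiblast or mesendoderm markers (0 of 8 called, medians of 0.00 and 0.07) and trophoblast markers (0 of 5 called, medians of 0.06 and -0.01) gave no calls, and the fibroblast list had medians of 0.04 and 0.11 with none called.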

How the data were processed

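Poly(A)-selected RNA of 9 libraries had been sequenced as single-end reads of 50 bases by the authors, trimmed with Trim Galore, mapped to GRCm38 with HISAT2 2.0.5, and quantitated strand-specifically over mRNA probes in SeqMonk with distributions matched between libraries. The authors deposited log2 expression values, not counts, and the submitters' processing notes give Trim Galore as 0.4.5. limma 3.58.1 (R 4.3.3) was therefore used in place of DESeq2. It was fitted to all 9 libraries with an intensity trend, and p-values were adjusted by Benjamini-Hochberg over the 14601 of 25965 genes with log2 above -2 in at least 3 libraries (threshold 0.05). An intensity difference filter used a normal model of the nearest 1% of genes. The fit was tested on simulated data.

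Members and lists were chosen with earlier results of these data known. Genes named are the members, other Dppa names, nearest genes and called genes within 250 kb, the 3 genes most like each member, and from each list those called (at most 6) or the first few. The 11 lists hold KH-domain relatives, Dppa3 partners in DNA methylation, naive regulators, Oct4-related genes, germ cell genes, and markers of ESCs, primitive endoderm, primed epiblast or mesendoderm, trophoblast, fibroblasts, and 2C-like cells. Transcript lengths from GENCODE were found for 87.4% of genes. Reads were estimated from steps between distinct values, and depths are approximate. The length trend was a lowess curve (span 0.3). Python 3.11.15, numpy 2.4.6, pandas 2.3.3, and matplotlib 3.10.9 were used. RefSeq promoter and protein tables gave no sequence for the members.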

Additional observations from a re-analysis of the deposited data

Results flagged for a closer look

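The response to the knockdowns differed between them for the targeted genes. With Dppa4 siRNA minus Dppa2 siRNA, the log2 difference was 3.43 for Dppa2 (95% interval 3.11 to 3.76, higher in 3 of 3 libraries) and -0.99 for Dppa4 (95% interval -1.16 to -0.81, lower in 3 of 3 libraries), both past the threshold (limma adjusted p = 2.43e-05 and 0.00351). Each siRNA pool lowered its own target, so these values follow from the design. It was also 3.26 for 4930486L24Rik (95% interval 2.56 to 3.95, higher in 3 of 3 libraries, limma adjusted p = 0.0106), whose Dppa2 siRNA libraries were near the floor of the table. For Dppa3 and Dppa5a no such difference passed. Groups of 3 libraries are too small for a check of single outlying libraries.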

How the results depend on the processing

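The call of Dppa2 with its siRNA and that of Dppa4 with its siRNA stood under all 19 alternatives run (log2 changes of -3.60 to -3.35 and -1.02 to -0.91). Dppa3 with Dppa4 siRNA ranged from -1.23 to -0.56 with 1 library left out and never passed then; it passed without the length trend (-0.99) and with the axis covariate (-0.91), as did its difference between knockdowns with the covariate (-0.72) and Dppa5a with Dppa2 siRNA (0.24). Uncalled differences changed sign for Dppa2 with Dppa4 siRNA (-0.14 to 0.02 over left-out libraries, 0.02 without control A), Dppa3 with Dppa2 siRNA (-0.52 to 0.16), and Dppa5a with Dppa4 siRNA (-0.11 to 0.20), and without the length trend for Dppa4 with Dppa2 siRNA (-0.03) and Dppa5a with Dppa4 siRNA (-0.01). Dppa4 between the knockdowns (-1.01 to -0.96) lost its call without Dppa4 siRNA replicate B (adjusted p = 0.0688) or C (adjusted p = 0.0525).

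Whether the replicate letters pair the libraries is not stated in the sources used here. Deviations of same-letter libraries correlated at -0.58 to 0.37. The shared axis took 58.3% of the variance of these deviations, so the correlations cannot exclude a pairing. With the letter as a replicate block the difference of Dppa4 between knockdowns was -0.99 (adjusted p = 0.126), no other member call changed, and limma called 238, 212, and 1 genes in the 3 comparisons and 176 high-confidence genes with Dppa4 siRNA.

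Counts of limma calls (502 with Dppa2 siRNA, 502 with Dppa4 siRNA, 3 between them) were 2927, 3591, and 915 with the axis covariate. They were 230 and 294 with only the groups compared, and 9140 with Dppa2 siRNA and 5 between knockdowns with no filter on low values, where rows at the floor of each library enter the fit. With 1 library left out they were 232 to 494, 184 to 506, and 1 to 3. High-confidence genes (279 and 284) numbered 623 and 634 with the covariate, 92 and 73 with the filter p adjusted, 183 to 239 and 149 to 287 with 1 library left out, and with Dppa2 siRNA 457 with no filter on low values, 184 with a stricter one, and 174 with only the groups compared. The cause of these moves was not tested. Of 22 called results for other genes named with a test, all 22 kept their direction and 15 also their call under the alternatives run. Dppa1 and Dppa5b did not pass the filter on low values and were not tested.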
